A study of Mus musculus with 3 samples.

Results

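Of the 15797 TFAP2A peaks on chromosomes 1 to 19 that were shared by both ChIP replicates in melan-a cells, 325 had their summit inside an exon of a protein-coding gene and away from every promoter. They made up 2.06% of the shared peaks, with a Clopper-Pearson 95% interval from 1.84% to 2.29%. A peak was taken when it stood in the replicate 1 list, shared 1 bp or more with a replicate 2 peak, and had its summit (its highest point) in an annotated exon and more than 1 kb from every transcription start site (TSS) of any annotated transcript. Exons and TSSs were those of GENCODE mouse version 1, on mm9. The rule used position only, and neither enrichment nor sequence. The other shared peaks comprised 6342 in introns of protein-coding genes, 5742 in intergenic sequence, 3054 within 1 kb of a TSS and 334 in other genes.

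The study mapped the sites of TFAP2A on chromatin by ChIP-seq, in which bound DNA is precipitated with an antibody and sequenced. All samples came from melan-a, an immortalised mouse melanocyte line, labelled as homozygous for Cdkn2a tm1RDp and as derived from normal embryonic skin. The cells grew in medium with 10% serum, 200 nM TPA and 200 pM cholera toxin, were fixed in 1% formaldehyde for 10 min, and the chromatin was precipitated with the AP-2alpha (3B5) antibody. The 2 ChIP replicates form 1 group, and the third sample was input chromatin, of which no file was analysed here. One cell line stands for melanocytes, and peak lists carry no expression values, so the cell type could not be checked against marker genes. The lists held 18528 peaks in replicate 1 and 21459 in replicate 2. The number of reads behind them was unknown. The labels say that the ChIP DNA came from separate experiments, but not whether the cultures were separate, so the spread between replicates may be technical in part. With 2 libraries of 1 group no test over samples was possible, so counts are given with exact 95% intervals, which cover counting error only, and measured values are given in each replicate.

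TFAP2A is a sequence-specific transcription factor that can activate or repress genes and binds DNA as a dimer through a helix-span-helix domain. It is used in the neural crest, the epidermis and the melanocyte lineage, and most of its sites lie at promoters and at enhancers in introns and between genes. Exonic DNA can be bound as well, and there the bases of a binding site also spell codons, or lie in the untranslated region (UTR) that the mRNA carries before or after them. A peak in an exon marks the DNA, and says nothing of the RNA made from it.

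The core TFAP2 site was searched as GCCNNNGG, whose opposite strand reads CCNNNGGC. The site nearest to the summit is shown for 11 members, chosen to span the kinds of exon, with the most enriched peaks first and then the peaks in genes of the pigment list. Each line gives 30 bases of the plus strand of mm9 with the 8 bases of the site in capitals.
Cep170, coding exon, chr1:178710493-178710522: tataatggagtGCCTCGGGgcatagcagag
Rps6kb1, coding exon, chr11:86330876-86330905: agagcggtccaCCCAAGGCctgggggcaaa
Atp10b, 3′ UTR, chr11:42968087-42968116: gacttcactagCCTTGGGCaattgggcaca
Stard5, 3′ UTR, chr7:90789824-90789853: gggaggtgagcCCCATGGCatgtacctcac
Mbnl2, 3′ UTR, chr14:120828301-120828330: cagaccacaacCCTAAGGCtagttctgcta
Kank4, 3′ UTR, chr4:98422974-98423003: ggggggcttggCCTAAGGCaaaacactacc
Apbb2, non-coding exon, chr5:66933847-66933876: tcagtgtcagcCCTGAGGCctccaaacact
Apaf1, 5′ UTR, chr10:90542762-90542791: gcatccattgtGCCTCAGGgttttctctct
Notch1, non-coding exon, chr2:26357286-26357315: gactgcactcaGCCTCGGGgctgtcttccg
Lef1, non-coding exon, chr3:130818541-130818570: tcaaacgcactGCCCAAGGcatccttgcat
Mc1r, 3′ UTR, chr8:125934201-125934230: aagcatcccagGCCTCTGGatgcttctaag
The 3 bases in the middle of the site varied from member to member, and the windows of Atp10b, Kank4 and Lef1 also held the longer form GCCNNNGGC.

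The first comparison set coding against untranslated sequence. Of the 325 exonic peaks, 164 (50.5%, interval 44.9% to 56.0%) had their summit in a 3′ UTR, 115 (35.4%, 30.2% to 40.9%) in coding sequence, 42 (12.9%, 9.47% to 17.1%) in an exon that only non-coding transcripts of the gene carry, and 4 (1.23%, 0.336% to 3.12%) in a 5′ UTR. Exonic sequence more than 1 kb from a TSS was 46.1% coding, 43.0% 3′ UTR, 9.88% non-coding and 0.966% 5′ UTR by bases. Coding sequence thus held a smaller share of the peaks than of the bases, and 3′ UTRs a larger one. Per megabase, coding sequence held 4.53 summits of replicate 1 peaks and 4.61 of replicate 2 peaks. The 3′ UTRs held 6.93 and 6.89 summits per Mb, and the non-coding exons 7.73 and 7.92. Introns held 7.69 and 7.76 per Mb. The 2 rates of a class count the same shared regions, each placed by the summit of 1 replicate. Their closeness follows from the rule and does not measure how replicates vary. In replicate 1 the exact Poisson 95% intervals of coding sequence (3.74 to 5.44) and introns (7.50 to 7.88) did not overlap. Those of 3′ UTRs (5.91 to 8.08) and introns did overlap. Intergenic sequence held 4.21 and 4.25 per Mb, within the interval of coding sequence, and the 2 kb around TSSs far higher, at 30.6 and 31.0. No rate was corrected for bases where reads cannot be placed with certainty, and the effect of such bases was not tested. The 4 summits in 5′ UTRs were too few for a rate, and 5′ UTR bases more than 1 kb from a TSS came to 0.531 Mb.

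**Figure D1:**
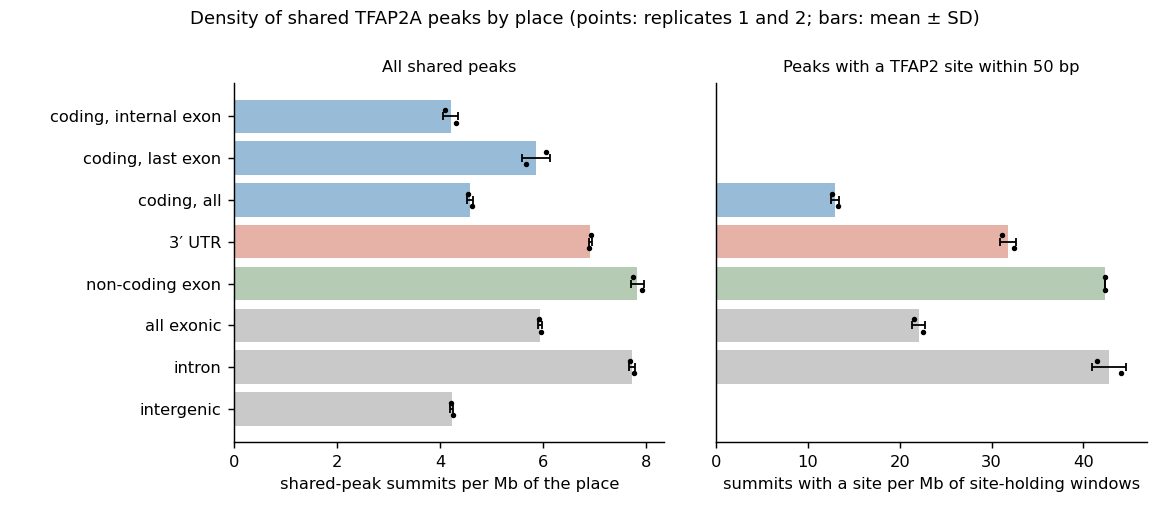
Left, summits of shared peaks per Mb of each place in the genome. Right, summits with a TFAP2 site within 50 bp per Mb of positions whose window holds such a site (drawn for coding sequence, 3′ UTR, non-coding exon, all exonic and intron). Bars are means, error bars the SD and points the 2 replicates. Both replicates count the same shared regions, so the SD does not measure how replicates vary. Coding sequence as a whole, at 4.57 ± 0.0558 and 12.9 ± 0.432 per Mb, is below 3′ UTRs, non-coding exons and introns in both panels.

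The classes depend on the transcripts that are counted. Of the 42 peaks in non-coding exons, 25 lay in transcripts annotated as retained introns, which are introns in the coding forms of the gene. Another 15 exonic peaks were read from processed transcripts and 9 from transcripts marked for nonsense-mediated decay. In all, 48 of the 325 peaks lay in no exon of a transcript of the protein-coding type, and 82 in no exon of the gene's main transcript (the one with the longest coding sequence). The summits of both replicates mostly gave the same answer. The replicate 2 summit lay in an exon of the same gene for 307 of 325 peaks (94.5%, 91.4% to 96.7%), with 102 of 115 among coding peaks and 160 of 164 among 3′ UTR peaks.

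The second comparison set last against internal exons. A last exon held 221 of the 325 summits (68.0%, 62.6% to 73.0%), an internal exon 92 (28.3%, 23.5% to 33.5%), the exon of a single-exon transcript 10 and a first exon 2. Last exons held 59.3% of the exonic bases and internal exons 38.0%. Per megabase, last exons held 6.78 and 6.75 summits in replicates 1 and 2, and internal exons 4.40 and 4.60. The exact intervals in replicate 1 did not overlap (5.92 to 7.74 against 3.55 to 5.40). Last exons consist mostly of 3′ UTR, but the coding part of last exons (32 summits) held 6.05 and 5.67 summits per Mb against 4.10 and 4.30 in coding internal exons (80 summits). Their exact intervals overlapped in replicate 1 (4.14 to 8.54 against 3.25 to 5.10). Among peaks in 3′ UTRs 154 lay in a last exon, 7 in a single exon and 3 in an internal exon. Members lay at a median of 0.650 of the length of the spliced transcript, counted from its 5′ end, with 0.370 for coding peaks and 0.767 for 3′ UTR peaks.

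The exons that held a summit were long in the untranslated part and short in the coding part. The median exon with a summit was 1652 bp long, against 1288 bp for the exon around the median exonic base. It was 2378 bp for 3′ UTR peaks, 2186 bp for peaks in non-coding exons and 167.5 bp for coding internal exons, which is shorter than the median peak there (387.5 bp). Accordingly 130 of 164 3′ UTR peaks (79.3%) lay wholly in exonic sequence, but only 6 of 80 peaks in coding internal exons (7.50%, 2.80% to 15.6%). In the latter a median of 48.2% of the peak's bases were exonic and the summit stood a median of 44.0 bp from the nearest splice site. In all, 68 of the 80 were within 100 bp of one, compared with 7 of 157 for 3′ UTR peaks with a splice site. Apart from those 6, a peak on a coding internal exon ran into flanking intron, and its summit put it in the exon.

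**Figure D2:**
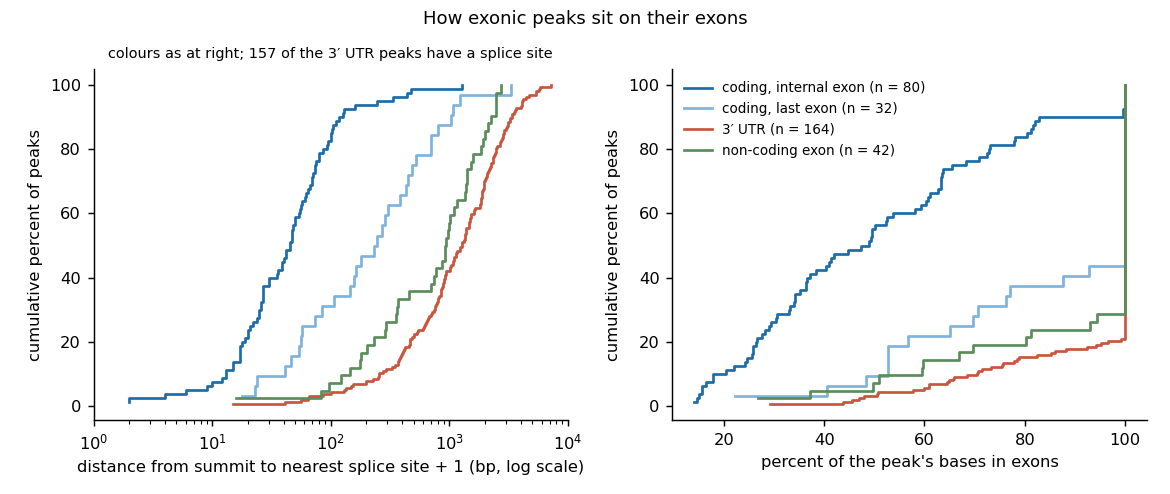
Cumulative share of exonic peaks (percent) by distance from the summit to the nearest splice site of its exon (left, bp plus 1, log scale; single-exon transcripts have none) and by the share of the peak's bases in exons (right). Coding internal exons stand apart, with a median distance of 44.0 bp against 1274 bp in 3′ UTRs.

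The density of exonic peaks was then read by distance from the TSS. Between 1 and 2 kb from the nearest TSS there were 51 peaks, or 7.75 per Mb of exonic sequence at that distance (exact Poisson interval 5.77 to 10.2). Between 2 and 5 kb there were 92, or 7.11 per Mb. The density was 4.76 per Mb (57 peaks, 3.60 to 6.17) from 5 to 10 kb, 5.23 (101 peaks) from 10 to 50 kb and 5.75 (24 peaks) farther out. The intervals of the nearest bin and of the 5 to 10 kb bin overlapped. The median distance was 6081 bp, from a lowest of 1018 bp to a highest of 203214 bp. At the 1 kb limit, the nearest peaks inside the set were in coding exons of Snapc3 (1018 bp, fold enrichment 6.62 in replicate 1 and 7.54 in replicate 2), a subunit of the complex that starts small nuclear RNA transcription, and of Slc38a2 (1048 bp, 3.91 and 3.97), an amino acid transporter. Just outside stood a 3′ UTR peak of Prrg2 (988 bp, 3.87 and 4.13) and a coding peak of Htra2 (952 bp, 3.92 and 2.94).

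Enrichment was then compared with the other shared peaks. The deposited lists carry 1 enrichment value per peak, read here as the ratio of ChIP signal to background. The program that wrote the lists is not given in the sources used here, so the exact definition of this ratio is unknown. Its median over exonic peaks was 6.14 in replicate 1 and 6.67 in replicate 2 (mean 6.41 ± 0.374, SD, n = 2), against 6.14 and 6.74 in introns, 6.41 and 6.87 in intergenic sequence and 4.61 and 5.07 near TSSs. The exonic to intronic ratio of these medians was 1.00 in replicate 1 and 0.990 in replicate 2, so that no difference from intronic peaks was seen beyond the spread between replicates. Over all shared peaks the medians were 5.91 and 6.41. The highest 10.0% of all shared peaks by enrichment in each replicate held 35 of the 325 exonic peaks in replicate 1 and 35 in replicate 2 (10.8% each, 7.62% to 14.7%), which is near the background. In both lists the exonic share of the shared peaks was close to even over 5 groups of equal size by enrichment, at 1.84% to 2.56% in replicate 1. In replicate 2 it was 1.68% to 2.41%. The intervals of the groups overlapped within each replicate.

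Within the exonic peaks the kinds of exon differed little. Coding peaks had a median enrichment of 5.38 in replicate 1 and 6.35 in replicate 2, 3′ UTR peaks 6.43 and 7.06, and peaks in non-coding exons 6.36 and 7.20. Coding peaks were thus lower in each replicate, by about as much as the replicates differed from each other. Among coding peaks, 75 of 114 pairs were higher in replicate 2 than in replicate 1, against 89 of 164 in 3′ UTRs, 19 of 42 in non-coding exons and 57.8% of pairs over all shared peaks. The replicates were about as close as over all shared peaks, which the rule also required to overlap. In 324 of the 325 the pair of peaks were each other's largest overlap, the median of the replicate 2 to replicate 1 ratio was 1.04 (1.05 over all shared peaks), 88.6% of pairs were within 1.5-fold (88.1%), and the summits lay a median of 23.5 bp apart (24 bp). Spearman's rho over the 324 pairs was 0.84 (0.85 over all), given as a description, since both lists rest on the same regions and cell line. Of all replicate 1 peaks in exons, 325 of 368 (88.3%) were shared, against 86.9% of those in introns. For replicate 2 it was 328 of 442 (74.2%) against 76.0%.

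**Figure D3:**
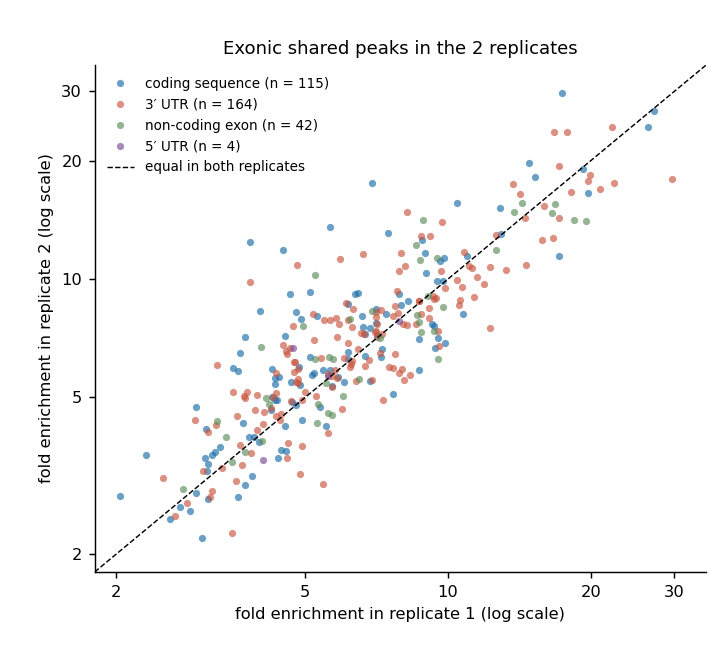
Fold enrichment of the 325 exonic peaks in replicate 1 (x axis) and in the overlapping replicate 2 peak (y axis), both on log scales and coloured by kind of exon. Points lie along the line of equal values with all kinds of exon mixed. Values span 2.04 to 29.6 in replicate 1, and 2.19 to 29.7 in its counterpart.

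The DNA sequence under the summits was not used by the rule. A TFAP2 site (GCCNNNGG on either strand, all 8 bases within 50 bp of the summit) was found at 190 of the 325 exonic peaks (58.5%, 52.9% to 63.9%), against 57.1% of all shared peaks. It was found at 55.0% of intronic peaks. In equal windows shifted by 400 bp to the left and to the right, 16.3% and 14.2% of exonic peaks held a site, and 12.8% and 13.1% of intronic peaks did. Of all windows of this length centred on exonic bases, 16% held a site, and of those centred on intronic bases 10.2%. So the site was 3.84 times as frequent at exonic summits as in their flanks, and the flanks were near the level of exons as a whole. The longer form GCCNNNGGC stood at 55 summits (16.9%, 13.0% to 21.5%), against 19.1% of all shared peaks and 2.82% of all exonic windows. The longer form reads as a core site on each strand, so it gives 2 overlapping matches of the core. With each longer form counted once, 150 peaks held 1 site, 34 held 2 and 6 held 3.

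**Figure D4:**
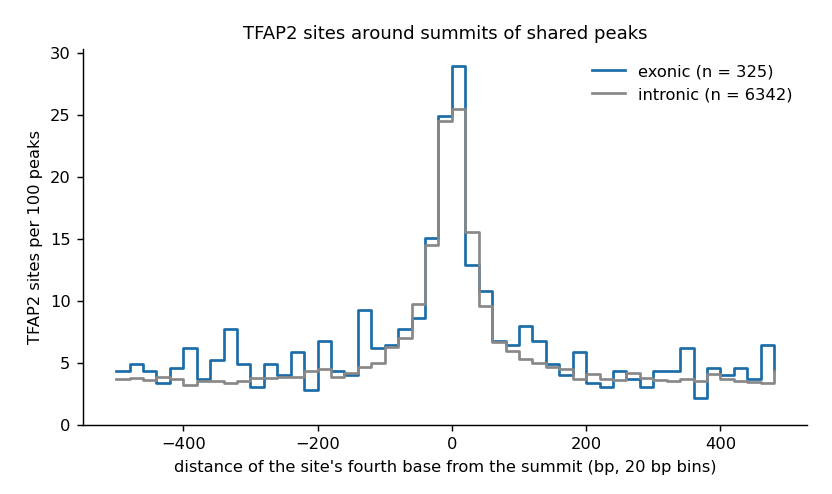
Matches of the TFAP2 core site (GCCNNNGG, either strand) per 100 shared peaks in 20 bp bins by distance from the summit, for exonic and intronic peaks. Both profiles rise to their highest bin at the summit, 28.9 per 100 exonic peaks just to its right, and fall to about the flanking level by 200 bp.

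The share with a site was 59.8% (98 of 164) in 3′ UTRs, 53.9% (62 of 115, 44.4% to 63.2%) in coding sequence and 66.7% (28 of 42) in non-coding exons, with overlapping intervals. The supply of sites differed more. Of all windows centred on coding bases 19.4% held a core site, against 13.3% in 3′ UTRs, 12.2% in non-coding exons and 10.2% in introns. Set against that supply, the number of shared peaks with a site per Mb of site-holding positions was 12.6 and 13.2 in coding sequence in replicates 1 and 2, 31.2 and 32.4 in 3′ UTRs, 42.3 and 42.3 in non-coding exons, and 41.5 and 44.1 in introns. Coding sequence stood lowest, with an exact Poisson interval of 9.67 to 16.2 in replicate 1. The intervals were 25.3 to 38.0 in 3′ UTRs and 40.1 to 42.9 in introns. Here too the 2 replicates count the same shared regions. The share of G and C was 51.1% over coding bases, 43.6% over 3′ UTR bases and 42.5% over intronic bases, and its part in these rates was not tested.

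The site nearest to the summit was in the same exon for 186 of the 190 peaks, and for 40 of 42 in coding internal exons. The rule had already put the summit in the exon and sites were sought within 50 bp of it, so these counts are a description. The median distance from summit to site was 14.5 bp. Within coding sequence the windows of the 115 coding peaks held 102 matches of the core site that lay wholly inside 1 coding segment. Of these, 36 began at the first codon base, 36 at the second and 30 at the third, read on the coding strand (35.3%, 35.3% and 29.4%, against 34.2%, 33.2% and 32.6% of 69825 matches in all such coding sequence). Each longer form counts here as 2 overlapping matches, so these are not independent sites, and no interval is given.

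Base composition moved with the summit. The windows at exonic summits were 51.2% G or C (SD 8.76 over 325 peaks), against 45.7% in their flanks and 47.1% over all exonic bases. In coding sequence the values were 53.6% at the summit, 45.8% in the flanks (which often lie in introns) and 51.1% over all coding bases. In 3′ UTRs they were 50.2%, 45.7% and 43.6%. CpG dinucleotides numbered 3.19 per 101 bp window at coding summits and 1.8 in their flanks, while in 3′ UTRs summit and flank were alike, at 1.41 and 1.38. The TFAP2 site is itself rich in G and C, and its part in these values was not tested.

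Sites of other melanocyte and enhancer factors were counted in the same windows. The AP-1 site (TGACTCA or TGAGTCA) stood at 22 exonic summits (6.77%, 4.29% to 10.1%) against 2.46% of their flanks and 1.41% of all exonic windows. The figure was 6.43% at intronic summits and 6.36% over all shared peaks. Among coding peaks it was 10 of 115 (8.70%, 4.25% to 15.4%), against 1.30% of flanks. Among 3′ UTR peaks it was 8 of 164 (4.88%, 2.13% to 9.39%), with the 3.35% of their flanks inside that interval. TEAD sites (GGAATG) stood at 9.85% of exonic summits and 5.38% of flanks, SOX sites (ACAAAGG or ACAATGG) at 4.62% and 3.23%, the M-box TCATGTG, a form read by MITF, at 2.46% and 0.923%, and the E-box CACGTG at 2.77% and 1.69%. All were searched on both strands. Over all shared peaks the summit shares were 10.5% for TEAD, 5.22% for SOX, 2.01% for the M-box and 1.79% for the E-box, each within the interval of the exonic peaks. Over all exonic windows the shares were 5.34% for TEAD, 3.52% for SOX, 1.54% for the M-box and 1.48% for the E-box. For SOX, the M-box and the E-box the 95% interval at the summit held the share of all exonic windows. Peaks with a TFAP2 site had median enrichments of 6.43 and 7.11, and those without one 5.58 and 6.31, a difference of about the size of that between the replicates.

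The 10 most enriched exonic peaks, by the mean of their ranks in both replicates, fell in 4 coding exons and 6 3′ UTRs. The first was in the last exon of Zfp472, a zinc finger gene, with a fold enrichment of 27.1 in replicate 1 and 26.7 in replicate 2 and no core site within 50 bp. In Cep170, which encodes a centrosomal protein, the peak lay in internal exon 7 of 20 with 26.4 and 24.4, and its only site was 2 bp from the summit. Rps6kb1, the S6 kinase that acts downstream of mTOR, had a peak in internal exon 7 of 10 with 17.4 and 29.7, and 12.0 bp from a splice site. Its replicate 2 summit fell outside the exon. The replicates differed by more than for most members there, as they did for Atp10b, a lipid-flippase ATPase, with 29.6 and 17.9 in a 3′ UTR. Neither the Rps6kb1 nor the Atp10b summit lay in an exon of the gene's main transcript. Traf3ip3, named for its binding to TRAF3, had 19.3 and 19 in internal exon 15 of 16.

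The other 3′ UTR peaks of this group were those of Stard5, Mbnl2, Kank4, Gbp1 and 4930503B20Rik. Stard5, a sterol-binding START protein, had 22.3 and 17.6, and Mbnl2, a muscleblind regulator of splicing, 17.8 and 23.7, so that each was higher in a different replicate. The remaining 3 were closer between replicates. Kank4, an ankyrin-repeat protein, had 19.7 and 17.7 and 1 site, of the longer form. Gbp1, an interferon-induced GTPase, had 19.9 and 18.4 with no site, and 4930503B20Rik had 22.2 and 24.4 with none. The summit of the last also lay in an exon of a second protein-coding gene, which held for 2 of the 325 peaks. Sites were thus present in 7 of the 10, against 58.5% of all exonic peaks and 57.1% of all shared peaks.

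Beyond these, the best ranked peaks of each kind were lower. In coding last exons they were, after Zfp472, 1810062G17Rik with 15.3 and 18.2 and Ogn, which encodes the small proteoglycan osteoglycin, with 10.4 and 15.6. In non-coding exons they were Apbb2, a binding protein of the amyloid precursor, with 16.8 and 15.5, Trim12a, a tripartite motif gene, with 19.5 and 14.1, and Coro2a, an actin-binding coronin, with 18.5 and 14.1. In 5′ UTRs they were Tjap1, a tight junction protein, with 7.89 and 7.81, Apaf1, the core of the apoptosome, with 4.70 and 6.66, and Igsf3, a membrane protein of the immunoglobulin superfamily, with 5.6 and 5.68. The lowest mean enrichment belonged to a peak in the last coding exon of Tchh, trichohyalin of the hair follicle, with 2.04 and 2.81.

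**Figure D5:**
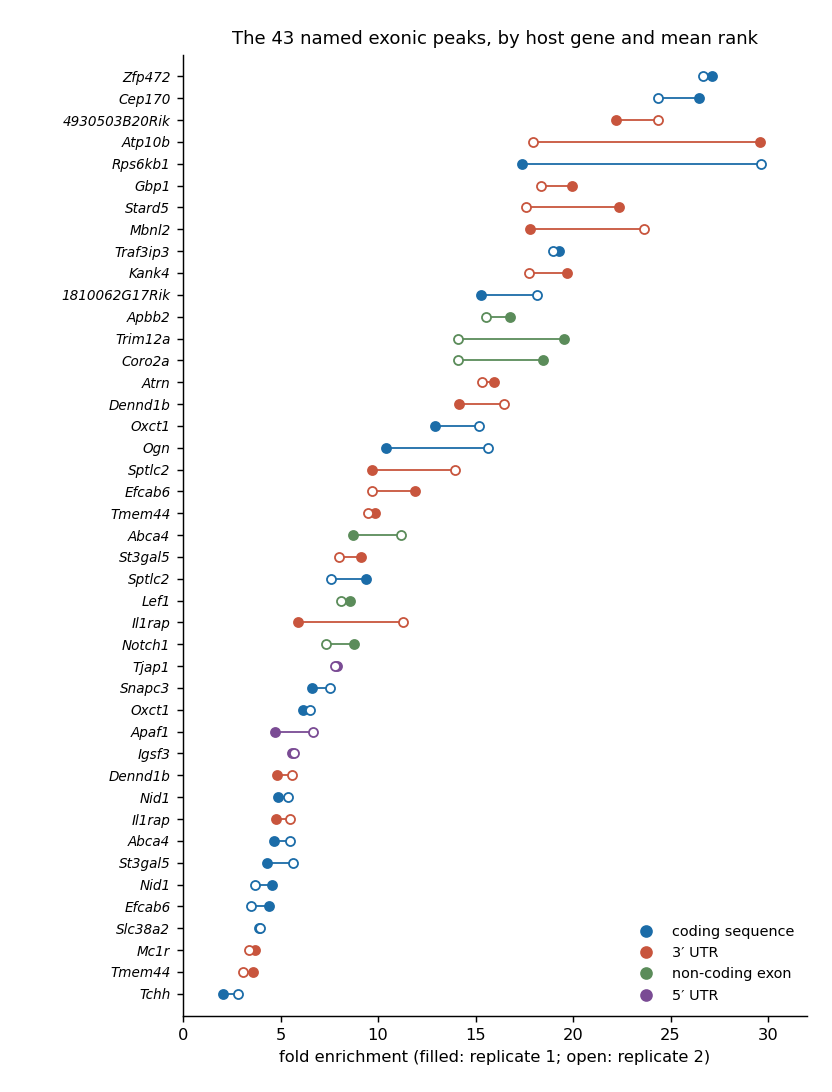
Fold enrichment of the 43 named exonic peaks in replicate 1 (filled circles) and replicate 2 (open circles), one row per peak, in order of mean rank and coloured by kind of exon. Values run from 2.04 to 29.7, and the largest differences between replicates are those of Rps6kb1 and Atp10b. By ratio the gap of the upper Il1rap peak (5.91 and 11.3) is wider.

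The 325 peaks lay in 316 host genes, 1.48% of the 21418 protein-coding genes on these chromosomes, with members on all 19. No gene held 3 members, and 9 held 2. In Oxct1, a mitochondrial enzyme of ketone body use, the pair lay in neighbouring internal exons (12.9 and 15.2 in replicates 1 and 2 for exon 9, 6.16 and 6.51 for exon 8). Nid1, the basement membrane protein nidogen, had 2 coding peaks of similar size (4.87 and 5.39, 4.56 and 3.67). Dennd1b (14.2 and 16.5, 4.84 and 5.59), Il1rap, a receptor subunit of interleukin 1 (5.91 and 11.3, 4.78 and 5.47), and Tmem44 (9.83 and 9.48, 3.57 and 3.06) had both peaks in 3′ UTR sequence. Both Il1rap summits lay in the same exon of a transcript marked for nonsense-mediated decay. Neither they nor the summit of the higher Dennd1b peak lay in an exon of the main transcript. The remaining 4 genes had 1 peak in a coding internal exon and 1 farther along.

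In those 4 genes the peak in the coding exon was the lower of the pair in both replicates. Sptlc2, a subunit of the enzyme that begins sphingolipid synthesis, had 9.36 and 7.61 in its coding exon and 9.71 and 13.9 in its 3′ UTR. St3gal5, which makes the ganglioside GM3, had 4.33 and 5.62 against 9.14 and 7.98, Efcab6 had 4.39 and 3.51 against 11.9 and 9.71, and Abca4, a retinoid transporter, had 4.67 and 5.47 against 8.71 and 11.2 in a non-coding exon. In Sptlc2 the replicate 1 values were close, and the replicate 2 values were not.

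Host genes were then compared with other genes for a shared peak at a TSS of their own, within 1 kb. Such a peak was present in 68 of the 316 hosts (21.5%, 17.1% to 26.5%), against 13.2% of all protein-coding genes. It was present in 819 of 3159 hosts of intronic peaks (25.9%, 24.4% to 27.5%), and the 2 intervals overlapped. With the upper 50% of each list by enrichment the shares were 9.04% of hosts of exonic peaks, 9.01% of hosts of intronic peaks and 4.07% of all genes. With a window of 5 kb upstream to 1 kb downstream they were 35.8%, 37.4% and 17.4%. In that window an exonic or intronic peak upstream of another TSS of its host counts as a TSS peak itself. The shares of hosts are thus set in part by how hosts were chosen. Hosts of exonic peaks were longer than genes in general, with a median length of 42.2 kb against 15.5 kb, and shorter than hosts of intronic peaks alone (75 kb). Whether length accounts for the share was not tested. An intronic shared peak was present as well in 123 of the 316 hosts (38.9%, 33.5% to 44.5%), against 14.7% of all protein-coding genes. In these 123, the exonic peak was higher than the median intronic peak of the gene in 64 in replicate 1 and 65 in replicate 2. It was higher in both replicates in 56 and lower in both in 50, with a median ratio of 1.04 and 1.09. Another shared peak lay within 5 kb of 61 exonic peaks (18.8%, 14.7% to 23.4%). Over all shared peaks it was 26.3%, which lies above that interval.

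Among the lists of genes, the pigment list had 4 of its 50 members among the hosts (8%, 2.22% to 19.2%), against 1.48% of all protein-coding genes, while 23 (46%) had an intronic and 19 (38%) a TSS shared peak, against 14.7% and 13.2% of all protein-coding genes. The 4 were Mc1r, Notch1, Lef1 and Atrn. Mc1r encodes the melanocortin receptor that sets melanocytes to make eumelanin. Its peak lay in the 3′ UTR of its single exon, 1133 bp from a TSS, and was weak, with 3.68 in replicate 1 and 3.36 in replicate 2. Atrn encodes attractin, which acts with agouti signalling in coat colour, and its peak lay in the 3′ UTR of its last exon with 15.9 and 15.3 and no core site. The peaks of Notch1, a receptor needed to maintain melanoblasts (8.77 and 7.33), and Lef1, a transcription factor of the Wnt pathway (8.58 and 8.08), lay in exons of transcripts annotated as retained introns. Read against the coding transcripts, both peaks were intronic. With transcripts of the protein-coding type alone the list thus had 2 of 50 (4%, 0.488% to 13.7%), and that interval held the 1.27% of all genes.

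The other lists held 0 to 8 hosts each. Hosts included 8 of 473 C2H2 zinc finger genes (1.69%, 0.733% to 3.31%, near the share of all genes), among them Zfp472, Zfp503 and Zfp652. They included 4 of 99 extracellular matrix genes (4.04%, 1.11% to 10.0%), namely Col1a2, Col24a1, Lama4 and Nid1. In the list of cadherins and integrins the hosts were Itga10, Itgb1, Itgb3bp and Pcdh15, 4 of 105 (3.81%, 1.05% to 9.47%), of which Itgb3bp encodes a protein that binds an integrin and not an integrin itself. There were 3 of 97 chromatin regulators (3.09%, 0.642% to 8.77%), namely Chd2, Kdm3b and Mllt3, and 2 of 110 genes of Notch, Wnt, semaphorin and ephrin signalling (1.82%, 0.221% to 6.41%), namely Notch1 and Sema3d. There was 1 of 180 homeobox, Sox, Fox, Pax and T-box genes (0.556%, 0.0141% to 3.06%), namely Foxn2, and 0 of 1106 olfactory receptor genes, with an upper limit of 0.333%. The interval of each list but the pigment and olfactory receptor lists held the 1.48% of all genes. With transcripts of the protein-coding type alone that of the pigment list held the share of all genes as well. A member can lie only in exonic bases more than 1 kb from every TSS, and no list was scaled to its supply of them. How many such bases the olfactory receptor genes hold was not counted, so their 0 is a description and shows no depletion. Intronic shared peaks were present in 14.7% of all protein-coding genes. They were present in 43.4% of matrix, 30.9% of signalling and 25.7% of cadherin and integrin genes, in 33 of 97 chromatin regulators, in 12.1% of zinc finger and 10.6% of homeobox, Sox, Fox, Pax and T-box genes, and in 0 olfactory receptor genes.

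A few members lie in sequence with copies elsewhere in the genome, where mapped reads cannot be assigned with certainty. The sequence within 250 bp of the summit had a copy of at least 90% identity over at least 80% of its length for 7 of the 325 exonic peaks (2.15%, 0.870% to 4.39%), against 1.40% of all shared peaks. Those of Coro2a (5 copies) and of the 3′ UTR of St3gal5 (1 copy) are named above, and their values are uncertain for this reason. The others were in Api5, Fbxl14, Psg16, Pon2 and Gm10417, all in 3′ UTRs and named here after their values were seen. Of the 115 coding peaks, 0 had such a copy. Of these, 80 lay in coding internal exons, whose median length was 167.5 bp. A copy of so short an exon without its introns cannot reach 80% of the window, so the search could not find it.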

How the data were processed

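Chromatin from melan-a cells was precipitated with a TFAP2A antibody in 2 replicates and sequenced, with 1 input sample. The submitters' processing notes name BWA, MACS 1.4.2 and the mm9 build, without their roles or settings. The authors deposited 1 peak list per replicate, giving for each peak a position, a summit, an enrichment read as a fold (ratio to background), p-values and q-values as -log10, and a score, which was not used. The deposited lists hold called peaks only, and their read depth is unknown.

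Peaks sharing at least 1 bp were paired, and each summit was placed in 1 class, in the order TSS within 1 kb, exon, intron, other gene and intergenic. Exon classes were taken in the order coding, 5′ UTR, 3′ UTR and non-coding. Rates per Mb used every base of each class that is not N. Copies were sought with minimap2 2.31. Intervals were computed with scipy 1.17.1 and tables with pandas 2.3.3 in Python 3.11.15. On simulated data 300 of 300 overlaps and 40 of 40 sites were recovered.

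Peaks were named by rule: the 10 best mean ranks by enrichment, the 3 best of each of 5 kinds of exon, hosts in the pigment list, hosts with most members (9 tied), the lowest mean, and the 2 nearest to the TSS limit on each side. Alternatives covered thresholds, overlap, replicate side, TSS distance, transcripts, site and window. The members, gene lists and rules were chosen with earlier results of these data known.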

Additional observations from a re-analysis of the deposited data

How the results depend on the processing

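Of 117 recomputed values under 16 alternatives, 90 stayed within the error of the reported value or, for counts, within 1.5 times of it. With the upper 50% of each list by fold enrichment there were 168 exonic peaks in 166 host genes, 29.8% of them coding, with a median enrichment of 8.77, an exonic to intronic ratio of 0.938 and a TSS peak in 9.04% of hosts (4.07% of all genes). Exons then held 2.20% of the shared peaks. With each replicate taken alone the median enrichment lay between 5.70 and 5.76 and the ratio to introns between 0.968 and 1.00. A TSS limit of 500 bp gave 2.35% of shared peaks in exons, a median of 6.01, a ratio of 0.947 and a TSS peak in 28.3% of hosts. TSS peaks were still sought within 1 kb, so a member 500 bp to 1 kb from a TSS of its host counted as one. That share is thus set in part by the rule. With the TSS zone set from 5 kb upstream to 1 kb downstream, exons held 1.61% of shared peaks, with a ratio of 1.01. With transcripts of the protein-coding type alone the exonic share was 1.75% and the coding share 41.2%. The pigment list then had 2 of 50 genes among the hosts (4%), and its interval from 0.488% held the 1.27% of all genes, an alternative chosen after seeing the data. With 1 transcript per gene the shares were 1.54% and 45.3%, with 62.6% in last exons and a ratio of 0.984. The shares of bases in coding sequence and in last exons were not recomputed for these sets of transcripts. Whether coding sequence still held fewer peaks, and last exons more, than their bases would give was thus not tested there. The longer site stood at 16.9% of summits and 3.23% of flanks, and windows of 100 bp to each side gave 69.5% and 28.8%. A TSS window of 5 kb upstream to 1 kb downstream gave 35.8% of hosts (17.4% of all genes), a share in which a member itself can count as the TSS peak. Leaving out peaks with near-identical copies, an alternative chosen after seeing the data, gave a ratio of 0.986. The ratio of exonic to intronic medians thus lay on either side of 1, between 0.938 and 1.01, and its reported error covers 2 replicates only. No paired analysis was possible because the ChIP replicates form 1 group and no file of the input was analysed here. Read depth was unknown, so that the absence of a peak could not be told from too few reads.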
